A study of Mus musculus with 18 samples.

Results

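The Slc25 genes encode mitochondrial carriers, the proteins that move metabolites, nucleotides, cofactors and ions across the inner mitochondrial membrane. Members were all genes whose symbol begins with Slc25a and that had a probe set assigned to that gene alone on the Affymetrix Mouse Genome 430A 2.0 array. This gave 33 genes of the 12393 measured, each represented by its probe set with the highest mean over 18 arrays. The values are log2 signals made by the authors with GCRMA. Differences are given on the log2 scale, first named group minus second or stimulated minus resting, ± the SE of limma, with p-values adjusted over all tested genes. A gene was tested where its probe set reached log2 4, used here as a floor, on at least 3 arrays: 24 of the 33 carriers passed, among 6873 genes in all, and 21 of the 24 lay at or above it on all 18 arrays, the others being Slc25a14, Slc25a25 and Slc25a53. CD4+ T cells came from mice of 6 to 8 weeks, either wild type (WT) or ERRa-/- (ERRKO), which lack estrogen-related receptor α (ERRα), the nuclear receptor encoded by Esrra; how the allele was made was not given in the sources used here. Cells of each genotype were taken directly ex vivo (resting) or stimulated for 12 h with 10 µg of antibodies to CD3 and CD28, with 3 biological replicates in each group. The last 2 groups were wild-type cells given 20 µM XCT790 or 20 µM compound A, both described by the submitters as ERRα inhibitors, again with 3 arrays each. The protocol places these inhibitor cells in the same 12 h stimulation, although their sample labels state no stimulation. No vehicle was named for the stimulated controls, resting cells had no time in culture, and whether animals were pooled was not given in the sources used here.

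Carriers of this family are built of repeated modules of membrane-spanning helices, and most exchange one substrate for another. ADP/ATP and phosphate carriers supply ATP synthase, the aspartate/glutamate and oxoglutarate/malate carriers form the malate-aspartate shuttle, and other members bring in nucleotides for mitochondrial DNA and RNA, iron, glutathione and coenzymes. T cell activation turns a quiescent cell into one that grows and builds mitochondria. ERRα is known as a regulator of genes of mitochondrial energy metabolism.

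The arrays carried some differences that bear on all comparisons. Esrra read 4.55 ± 0.18 (SD, n = 3) in resting knockout cells against 5.42 ± 0.15 in resting wild-type cells, and the knockout difference passed at rest and after stimulation (limma, adjusted p = 0.000216 and 0.000331). The CD4 T cell list held Cd4 and the general T cell genes Cd3d, Cd3e, Cd3g, Lck, Lat, Cd28 and Cd5. All 7 measured markers of it were detected in every group, with averages of 11.6 to 12.7. Of the CD8 T cell markers, Cd8a was under the floor on every array. Cd8b1 was above it on every array, with group means of 7.04 to 7.32 in the 4 wild-type groups and 5.81 and 6.32 in resting and stimulated knockout cells. Averages of 10 macrophage markers were 7.32 to 8.41 on resting wild-type arrays and 7.95 to 9.70 on resting knockout arrays, with only Marco under the floor. On stimulated and inhibitor arrays these averages lay between 2.31 and 2.57. Averages of 10 neutrophil markers were 3.71 to 5.22 on resting wild-type arrays, 6.22 to 8.58 on resting knockout arrays and 2.20 to 5.04 on the others. B cell markers averaged 6.96 in resting wild-type cells, 5.99 in resting knockout cells and 4.78 to 5.40 elsewhere. Fewer cells of a type and less RNA per cell cannot be told apart in such bulk samples, and the part of other cell types in the differences between resting and stimulated groups was not tested. The 5′ probe set of the dap spike-in control read 3.73 to 6.03 on the 6 untreated wild-type arrays and 7.21 to 8.07 on the other 12. Where an untreated wild-type group is set against a knockout or an inhibitor group, that split and the group cannot be told apart, whereas activation within a genotype and XCT790 against compound A lie within one side of it.

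Most tested carriers changed with activation, in both directions and in about the proportion seen across the array. In wild-type cells 18 of the 24 passed at an adjusted p under 0.05, 10 higher and 8 lower after stimulation, where 75.4% of all tested genes passed (37% higher and 38.4% lower). In knockout cells 19 passed, 10 higher and 9 lower, against 73.4% of all genes (37.7% higher and 35.7% lower). Median differences of the carriers were -0.0015 and -0.011 on the log2 scale, beside -0.011 and 0.015 for all genes. A set of 17 genes passed in both genotypes, all in the same direction: Slc25a44 was the additional call in wild-type cells, and Slc25a37 and Slc25a46 were the additional calls in knockout cells. The 17, and the 10 higher in each genotype, include Slc25a25, whose knockout arrays all lay under the floor and whose calls are given no weight. No carrier passed for the interaction of genotype and stimulation (limma, 0 of 24, against 0.902% of all genes). An unadjusted p under 0.05 was reached by 3, but the share of all genes at that threshold was not counted. A difference between the genotypes in these responses was not shown. Only Slc25a20, the carnitine/acylcarnitine carrier of fatty acid oxidation, passed in none of the 10 comparisons made.

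**Figure D1:**
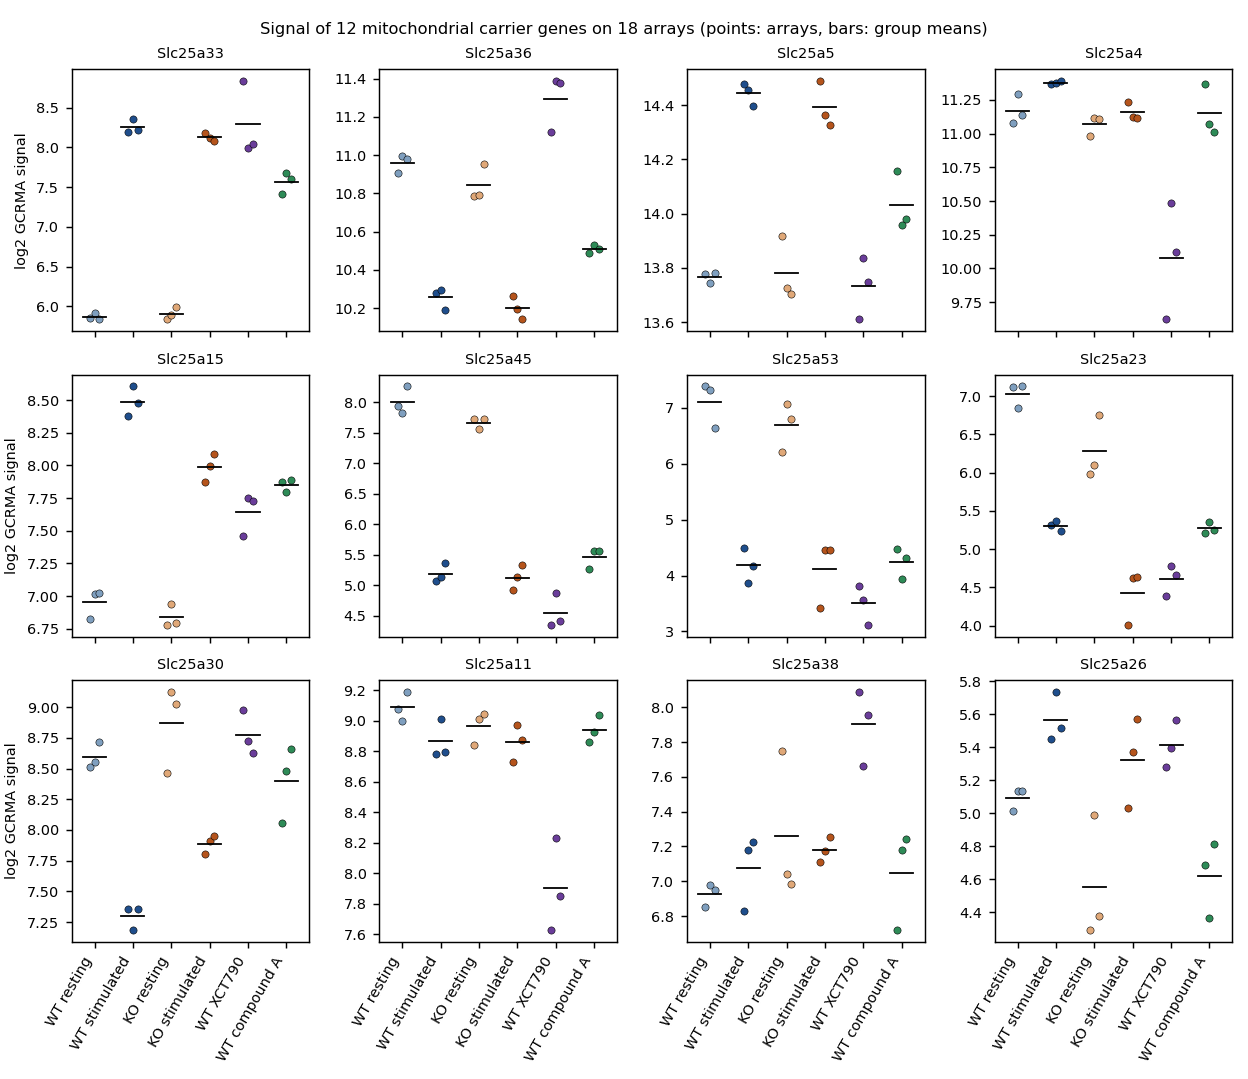
Log2 GCRMA signal of 12 of the 24 tested carriers, 1 panel per gene with its own vertical axis, in the 6 groups (WT, wild type; KO, knockout); points are arrays and bars are means of 3. Slc25a33 rises from below 6 to above 8 on stimulation, Slc25a45 and Slc25a53 drop, and the XCT790 arrays of Slc25a4 and Slc25a11 lie below all others.

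The pyrimidine nucleotide carriers Slc25a33 and Slc25a36 moved in opposite directions on activation, as read by the probe set that represents each. Slc25a33 read 5.86, 5.92 and 5.84 on the resting wild-type arrays and 8.19, 8.35 and 8.21 on the stimulated ones. It read 5.84, 5.89 and 5.99 in resting and 8.17, 8.12 and 8.08 in stimulated knockout cells. The resting and stimulated arrays were far apart in both genotypes, and the rise was 5.22-fold (log2 difference 2.38 ± 0.16, adjusted p = 5.81e-09) in wild-type cells and 4.65-fold (log2 difference 2.22 ± 0.16, adjusted p = 1.61e-08) in knockout cells. Slc25a36 read 10.90, 11.00 and 10.98 in resting and 10.28, 10.30 and 10.19 in stimulated wild-type cells. Its knockout arrays read 10.79, 10.79 and 10.96 at rest and 10.27, 10.20 and 10.14 after stimulation. It fell 1.63-fold in wild-type cells (adjusted p = 8.54e-07) and 1.56-fold in knockout cells (adjusted p = 2.55e-06), again without overlap, but its second probe set gave -0.0055 in wild-type and 0.28 in knockout cells. The inhibitors separated the pair as well. Slc25a36 read 11.12, 11.39 and 11.38 with XCT790, above every other array of the series, a rise of 2.05-fold over stimulated cells (adjusted p = 4.5e-08). Slc25a33 read 8.83, 7.99 and 8.04 with XCT790, an array spread that straddled the stimulated arrays (log2 difference 0.034 ± 0.16, adjusted p = 0.882), and without XCT790 array 1 the difference was -0.24 with an adjusted p of 0.0211. Compound A arrays read 7.42, 7.67 and 7.61, all below the stimulated arrays, and Slc25a33 fell 1.61-fold (log2 difference -0.69 ± 0.16, adjusted p = 0.00502). For Slc25a36 the compound A arrays read 10.49, 10.53 and 10.51, a rise of 1.19-fold (log2 difference 0.25 ± 0.076, adjusted p = 0.0199) that did not pass without stimulated wild-type array 3, compound A array 2 or compound A array 3 (adjusted p = 0.0798, 0.0628 and 0.0559, in that order). This call also ended with the mean of both probe sets (adjusted p = 0.211), the second of which gave -0.044.

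Promoter windows of the pyrimidine pair are shown because both hold the E-box CACGTG, the element bound by MYC and related factors. By their reported probe sets the genes moved in opposite directions on activation. Windows were read from RefSeq on build GRCm38.p6, 250 bases before to 50 after each annotated start, for the 26 carriers that matched, and capitals mark the E-box.
Slc25a33, chr4:149774268-149774367, minus strand: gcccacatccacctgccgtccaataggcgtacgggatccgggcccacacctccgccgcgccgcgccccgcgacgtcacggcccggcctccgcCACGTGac
Slc25a36, chr9:97111176-97111275, minus strand: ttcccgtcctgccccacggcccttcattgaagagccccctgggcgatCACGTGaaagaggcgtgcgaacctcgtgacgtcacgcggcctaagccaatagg
The element began 8 bases before the start in Slc25a33 and 187 bases before it in Slc25a36. CACGTG, which reads the same on both strands, was found for 5 of the 26 carriers (19.2%), against 8.09% of all genes with such windows. The other carriers with it were Slc25a13, Slc25a14 and Slc25a15, shown as shorter windows because they overlap annotated genes.
Slc25a13, chr6:6217281-6217310, minus strand: cacagtctgagtCACGTGtcctggcccctc
Slc25a14, chrX:48623382-48623411, plus strand: tccacctccctcCACGTGacgccccaccca
Slc25a15, chr8:22398337-22398366, minus strand: cgccctgccgcaCACGTGccgcggctccgg
Of these 5 carriers Slc25a13 was not tested, Slc25a14, Slc25a15 and Slc25a33 rose with activation, and Slc25a36 fell by its reported probe set only. These directions were not set against those of other genes with the element. The ERR half-site AAGGTCA, searched on both strands, was in 0 of the 26 windows, against 5.38% of all genes, and its extension TCAAGGTCA, which contains it, was in 0 of 26 against 0.466%. These matches describe letters within 300 bases only.

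Among the adenine nucleotide and phosphate carriers, the ADP/ATP carrier Slc25a5 rose with activation and Slc25a4 did not pass by its reported probe set. Both fell with XCT790. Slc25a5 (ANT2) read 13.78, 13.74 and 13.78 in resting and 14.48, 14.46 and 14.40 in stimulated wild-type cells, and 13.92, 13.73 and 13.71 and 14.49, 14.37 and 14.33 in the knockout groups. It rose 1.60-fold and 1.53-fold (adjusted p = 2.16e-06 and 7.29e-06), with no overlap in either genotype. Slc25a4 (ANT1) read 11.08, 11.29 and 11.13 at rest and 11.37, 11.38 and 11.39 after stimulation in wild-type cells, a difference of 0.21 that did not pass (adjusted p = 0.242). In knockout cells this set gave 0.089. Its other detected probe sets rose more, by 0.42 and 0.41 in wild-type and 0.38 and 0.48 in knockout cells. The mean of all its probe sets, an undetected one included, did not pass in either genotype. With XCT790, Slc25a4 read 9.62, 10.48 and 10.12, below all other arrays, and fell 2.46-fold (log2 difference -1.30 ± 0.16, adjusted p = 5.14e-06). Slc25a5 read 13.61, 13.84 and 13.75 with XCT790, close to its resting level, and fell 1.64-fold (log2 difference -0.71 ± 0.08, adjusted p = 2.37e-06). Compound A brought Slc25a5 to 14.16, 13.96 and 13.98, between rest and stimulation (1.33-fold, log2 difference -0.41 ± 0.08, adjusted p = 0.00154), and left Slc25a4 at 11.37, 11.07 and 11.01 (log2 difference -0.23 ± 0.16, adjusted p = 0.3). Slc25a3, the phosphate carrier that feeds ATP synthase, ranged from 12.77 to 13.59 over all arrays and rose 1.19-fold in wild-type and 1.28-fold in knockout cells (adjusted p = 0.0093 and 0.000884). It read 13.57, 13.59 and 13.56 with XCT790 (1.18-fold higher, adjusted p = 0.0126), a call that did not pass without stimulated wild-type array 3 (adjusted p = 0.0615).

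Slc25a23, a calcium-regulated ATP-Mg/phosphate carrier, was one of the most variable members. It read 7.12, 6.84 and 7.13 in resting and 5.32, 5.37 and 5.24 in stimulated wild-type cells, and 5.98, 6.11 and 6.75 and 4.01, 4.62 and 4.64 in the knockout groups. Every stimulated array lay below every resting array, and the fall was 3.30-fold (log2 difference -1.72 ± 0.19, adjusted p = 1.22e-06) in wild-type and 3.62-fold (log2 difference -1.86 ± 0.19, adjusted p = 6.44e-07) in knockout cells. With XCT790 the values were 4.39, 4.78 and 4.66, all below the stimulated controls (1.62-fold, log2 difference -0.70 ± 0.19, adjusted p = 0.00532), while with compound A they were 5.21, 5.35 and 5.26, overlapping them (log2 difference -0.034 ± 0.19, adjusted p = 0.936). Its relative Slc25a25 stayed near the floor, from 3.41 to 4.13 over the 18 arrays, and reached log2 4 on 5 of them. Those were stimulated wild-type and compound A arrays only, so the gene was tested only through groups where it was high. All resting wild-type, XCT790 and knockout arrays lay under the floor. Its activation differences of 0.38 and 0.42 (limma, adjusted p = 0.000194 and 7.69e-05) are therefore given without a fold or weight. They remain in the counts of calls, as do its calls for both inhibitors against rest. Slc25a24, another relative, was not tested and reached log2 4 on no array.

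Amino acid carriers were led by Slc25a15, the ornithine carrier of the urea cycle. It read 6.82, 7.01 and 7.02 in resting and 8.38, 8.61 and 8.48 in stimulated wild-type cells. Knockout arrays read 6.78, 6.94 and 6.79 and then 7.88, 8.00 and 8.09. The rise was 2.90-fold (log2 difference 1.54 ± 0.094, adjusted p = 2.19e-09) in wild-type and 2.22-fold (log2 difference 1.15 ± 0.094, adjusted p = 5.58e-08) in knockout cells, with wide gaps between resting and stimulated arrays. Values with XCT790 were 7.46, 7.75 and 7.73 and with compound A 7.87, 7.80 and 7.89, between the resting and the stimulated arrays in each case; Slc25a15 fell 1.79-fold and 1.55-fold against stimulated cells (adjusted p = 2.34e-06 and 0.000233). Slc25a22, a glutamate carrier, rose 1.33-fold (log2 difference 0.42 ± 0.15, adjusted p = 0.0191) in wild-type cells, a call that did not pass without resting wild-type array 2 or stimulated wild-type array 3 (adjusted p = 0.0531 and 0.073, in that order). It read 7.38, 6.94 and 7.41 and 8.26, 7.69 and 7.68 in the knockout groups and rose 1.55-fold (adjusted p = 0.00137). XCT790 lowered it 1.44-fold (adjusted p = 0.00567), and the compound A difference of -0.37 did not pass (adjusted p = 0.0696) but did with the array number as a block (0.0316) and with the compared groups fitted alone (0.0185). Citrin (Slc25a13), the aspartate/glutamate carrier, was not tested because it reached log2 4 on only 2 arrays. It read 3.78, 3.9985 and 4.16 in stimulated wild-type and 4.16, 3.07 and 3.00 in stimulated knockout cells. In resting wild-type cells it read 2.36, 2.37 and 2.37.

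Slc25a38, the glycine carrier that feeds haem synthesis, rose with XCT790 and passed in neither activation comparison nor with compound A. Its values were 6.85, 6.98 and 6.95 at rest, 6.83, 7.18 and 7.22 after stimulation and 8.09, 7.66 and 7.96 with XCT790. The XCT790 arrays lay above both, a rise of 1.77-fold (log2 difference 0.83 ± 0.19, adjusted p = 0.00145), while compound A values of 6.72, 7.18 and 7.25 overlapped the controls (log2 difference -0.028 ± 0.19, adjusted p = 0.948). Slc25a44, a carrier of branched-chain amino acids, read 6.20, 6.57 and 6.73 in resting and 5.93, 5.99 and 6.09 in stimulated wild-type cells. By this probe set it fell 1.41-fold (log2 difference -0.50 ± 0.13, adjusted p = 0.00327), and in knockout cells, at 6.14, 5.84 and 6.10 and 5.76, 5.77 and 5.68, the difference of -0.29 missed the threshold (adjusted p = 0.0589) and passed with the array number as a block (0.0452) and without resting knockout array 2 (0.0269). XCT790 and compound A arrays read 5.21, 5.08 and 5.54 and 5.51, 5.45 and 5.52, all below the stimulated arrays (1.66-fold and 1.42-fold lower, adjusted p = 0.000217 and 0.00938). Slc25a11, the oxoglutarate/malate carrier, was the tested dicarboxylate carrier. It held a narrow range of 8.73 to 9.19 in the 4 untreated groups and fell to 7.63, 8.23 and 7.85 with XCT790 (1.94-fold, log2 difference -0.96 ± 0.13, adjusted p = 1.2e-05), with compound A at 8.86, 8.93 and 9.04 (log2 difference 0.077 ± 0.13, adjusted p = 0.7).

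Of the cofactor carriers, Slc25a17 fell with XCT790 and Slc25a26 with compound A. Slc25a17, the peroxisomal carrier of cofactors such as coenzyme A, read 7.10, 6.78 and 7.12 at rest, 7.72, 7.89 and 7.74 after stimulation, 6.66, 7.16 and 6.77 with XCT790 and 7.50, 7.56 and 7.47 with compound A. It rose 1.72-fold in wild-type and 1.57-fold in knockout cells (adjusted p = 7.81e-05 and 0.000402) and fell 1.89-fold with XCT790 (adjusted p = 2.39e-05), whose arrays overlapped the resting ones. Slc25a26, which imports S-adenosylmethionine, was lower with compound A than with XCT790: its arrays read 5.45, 5.74 and 5.51 after stimulation, 5.28, 5.39 and 5.57 with XCT790 and 4.69, 4.36 and 4.81 with compound A. All 3 compound A arrays lay below the stimulated ones (1.92-fold, log2 difference -0.94 ± 0.18, adjusted p = 0.00132), whereas XCT790 arrays overlapped them (log2 difference -0.15 ± 0.18, adjusted p = 0.474). Its rise with activation was 1.39-fold (log2 difference 0.47 ± 0.18, adjusted p = 0.0265) in wild-type cells, which did not pass without resting wild-type array 1 or stimulated wild-type array 2 (adjusted p = 0.0738 and 0.0991, in that order), and 1.71-fold (log2 difference 0.77 ± 0.18, adjusted p = 0.00131) in knockout cells. The only probe set of this gene at or above the floor is of a type that can match more than 1 transcript. Slc25a51, which imports NAD, read 10.70, 10.42 and 10.57 at rest and 10.02, 10.01 and 9.77 after stimulation (1.55-fold, log2 difference -0.63 ± 0.11, adjusted p = 0.000109), but its probe sets disagreed in direction.

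Iron and glutathione carriers were all measured above the floor on all 18 arrays. Slc25a28 (mitoferrin 2) read 8.63, 8.81 and 8.73 at rest, 7.88, 7.95 and 7.82 after stimulation and 8.79, 8.35 and 8.71 with XCT790. It fell 1.79-fold on activation (adjusted p = 2.17e-05), 1.62-fold in knockout cells (adjusted p = 0.00014), and rose 1.66-fold with XCT790 (adjusted p = 0.00011), with arrays that overlapped those of resting cells. Slc25a39, a glutathione importer, read 12.08, 11.83 and 11.96 at rest and 12.71, 12.87 and 12.77 after stimulation. It rose 1.77-fold (log2 difference 0.83 ± 0.10, adjusted p = 4.27e-06) in wild-type cells and 1.48-fold in knockout cells (adjusted p = 0.000186), and neither inhibitor difference passed (adjusted p = 0.65 and 0.673). Its other detected probe sets were further down with XCT790, at -0.28 and -0.72 against -0.059 for the reported set, and the mean of all sets passed (log2 difference -0.35, adjusted p = 0.0102).

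Slc25a37 (mitoferrin 1), the iron importer of red cell precursors, spread most in resting knockout cells. It read 9.01, 8.95 and 8.94 in resting wild-type cells, 10.22, 9.08 and 9.25 in resting knockout cells, 8.41, 8.70 and 8.45 in stimulated wild-type cells and 8.37, 8.20 and 8.18 in stimulated knockout cells. All 3 resting knockout arrays lay above the resting wild-type arrays, array 1 by the widest margin; the difference of 0.55 did not pass (adjusted p = 0.109), and without resting knockout array 2 it was 0.77 (adjusted p = 0.0355). Erythroid markers were also highest in resting knockout cells. The average of 9 erythroid markers was 9.81, 8.15 and 8.06 on the resting knockout arrays, 6.63, 4.26 and 5.35 on the resting wild-type arrays, and 2.20 to 3.02 elsewhere; all 9 reached the floor in resting knockout cells, while Epb42 and Alas2 were under it in resting wild-type cells and all 9 in stimulated wild-type cells. Over the resting wild-type arrays the marker average ranged from 4.26 to 6.63, while Slc25a37 ranged from 8.94 to 9.01. Resting knockout array 1 was also the highest of all arrays for the macrophage and neutrophil marker averages, at 9.70 and 8.58. Its CD4 T cell list average, 12.16, was the lowest of the resting arrays. The part of erythroid or other cells in the Slc25a37 values was not tested. The same array was the highest untreated array for Slc25a38, at 7.75. Activation lowered Slc25a37 2.41-fold (log2 difference -1.27 ± 0.23, adjusted p = 0.000196) in knockout cells, and in wild-type cells the difference of -0.45 did not pass (adjusted p = 0.0956); the interaction did not pass either (adjusted p = 0.223). XCT790 gave 7.46, 7.99 and 8.18, with all arrays below the stimulated ones (1.56-fold, log2 difference -0.64 ± 0.23, adjusted p = 0.0256), a call that did not pass without stimulated wild-type array 2 or XCT790 array 1 (adjusted p = 0.0892 and 0.134, in that order).

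**Figure D2:**
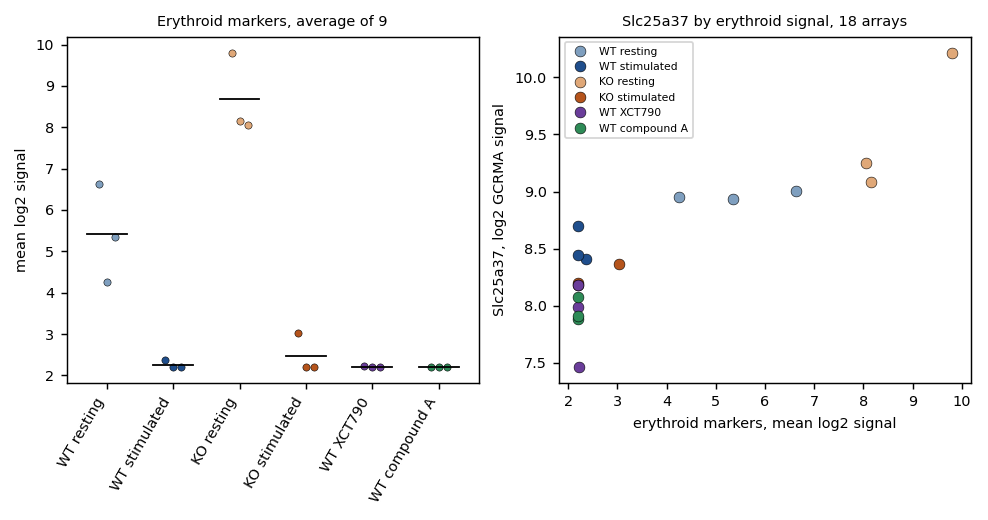
Left, average log2 signal of 9 erythroid markers by group, with arrays as points and means of 3 as bars; right, Slc25a37 log2 signal against that average, 1 point per array, coloured by group (WT, wild type; KO, knockout). Resting knockout array 1 is highest on both axes of the right panel, at 10.22 and 9.81, and the arrays of stimulated and inhibitor groups have marker averages of 2.20 to 3.02.

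The uncoupling-protein relatives went opposite ways. Slc25a30 read 8.51, 8.55 and 8.72 at rest, 7.36, 7.19 and 7.36 after stimulation, 8.97, 8.72 and 8.62 with XCT790 and 8.05, 8.48 and 8.66 with compound A. It fell 2.45-fold (log2 difference -1.29 ± 0.17, adjusted p = 6.3e-06) on activation and 1.98-fold (log2 difference -0.98 ± 0.17, adjusted p = 0.000103) in knockout cells, and both inhibitors lifted it above every stimulated array (2.77-fold, log2 difference 1.47 ± 0.17, adjusted p = 2.9e-06, and 2.14-fold, log2 difference 1.10 ± 0.17, adjusted p = 0.000299). Stimulated knockout arrays, at 7.80, 7.91 and 7.95, also lay above all 3 stimulated wild-type arrays, although the difference did not pass (log2 difference 0.58 ± 0.17, adjusted p = 0.101). Slc25a14 was dim, at 4.28, 4.24 and 4.37 in resting and 4.70, 4.53 and 4.73 in stimulated wild-type cells, and 3.61, 3.92 and 3.78 and 4.59, 4.59 and 4.47 in the knockout groups. It rose 1.28-fold (log2 difference 0.36 ± 0.099, adjusted p = 0.00445) and, with all resting knockout arrays under the floor, at least 1.46-fold in knockout cells (adjusted p = 5.39e-06). It fell 1.35-fold with XCT790 (adjusted p = 0.00136) and 1.22-fold with compound A (adjusted p = 0.0404), and the compound A call did not pass without stimulated wild-type array 1, stimulated wild-type array 3, compound A array 1, compound A array 2 or compound A array 3 (adjusted p = 0.112, 0.13, 0.0505, 0.0896 and 0.131, in that order).

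Members with no settled substrate included the largest falls of the family. Slc25a45 read 7.94, 7.83 and 8.26 in resting and 5.07, 5.13 and 5.37 in stimulated wild-type cells, and 7.72, 7.56 and 7.72 and 4.91, 5.14 and 5.33 in the knockout groups. It fell 7.05-fold (log2 difference -2.82 ± 0.15, adjusted p = 7.81e-10) and 5.81-fold (log2 difference -2.54 ± 0.15, adjusted p = 2.8e-09). Slc25a53 read 7.38, 7.32 and 6.63 and 4.49, 3.87 and 4.18 in the wild-type groups, and 6.21, 7.07 and 6.80 and 3.42, 4.46 and 4.46 in the knockout groups, so that stimulated arrays lay at or near the floor. With arrays under the floor set to it, the falls were 7.40-fold and 5.21-fold (adjusted p = 7.53e-07 and 3.41e-06). Slc25a45 fell further with XCT790, to 4.35, 4.87 and 4.42 (1.56-fold, log2 difference -0.64 ± 0.15, adjusted p = 0.00208), and not with compound A, at 5.26, 5.56 and 5.56 (log2 difference 0.27 ± 0.15, adjusted p = 0.195). Slc25a46, an outer membrane member linked to mitochondrial shape, read 9.79, 9.87 and 9.98 after stimulation and 9.09, 9.52 and 9.20 with XCT790, a fall of 1.53-fold (log2 difference -0.61 ± 0.11, adjusted p = 0.00017). Its activation difference passed in knockout cells (1.22-fold, log2 difference -0.29 ± 0.11, adjusted p = 0.0275; in wild-type cells -0.15, adjusted p = 0.213; interaction adjusted p = 0.694), a call that did not pass without resting knockout array 1 or stimulated knockout array 3 (adjusted p = 0.0848 and 0.108, in that order). It also ended with arrays set to a common median (adjusted p = 0.0518) and with the mean of its probe sets (0.533); the second set gave 0.14 in knockout and 0.13 in wild-type cells.

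**Figure D3:**
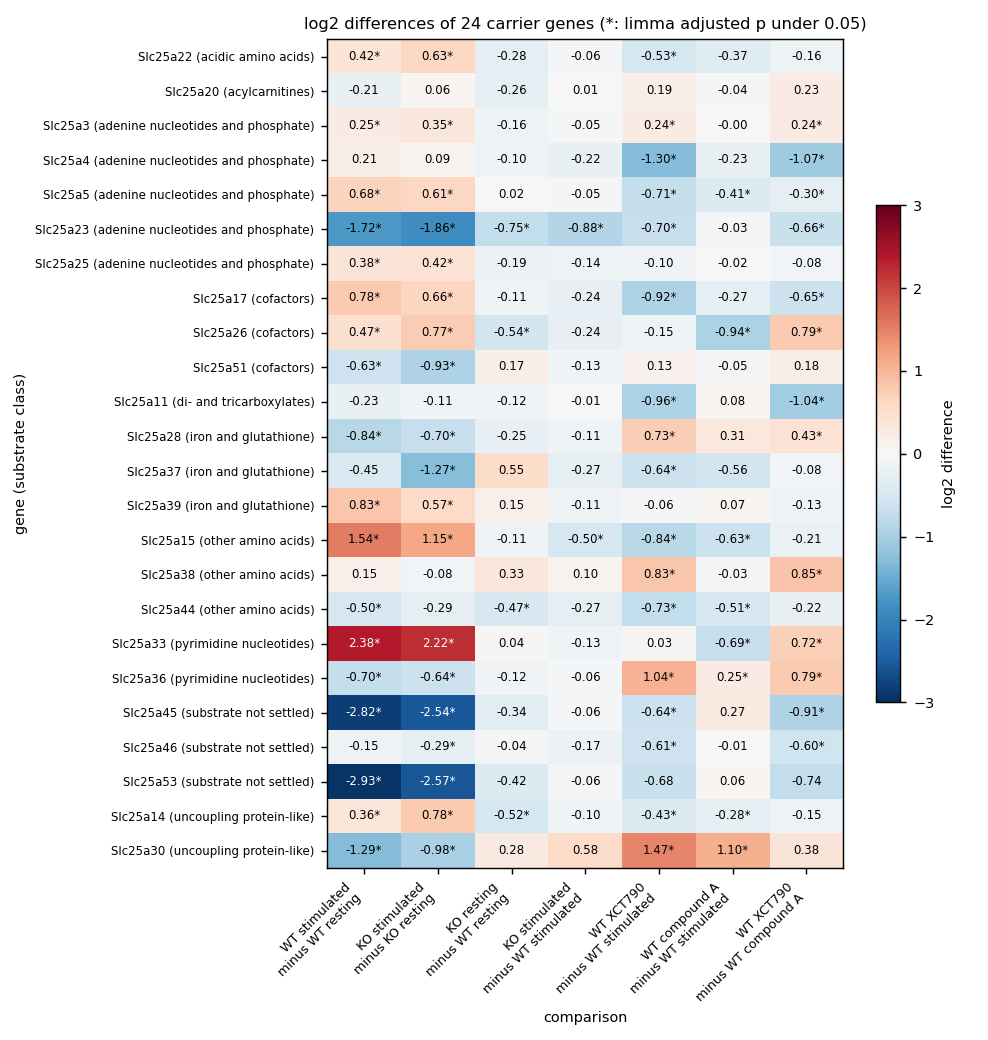
Log2 differences of the 24 tested carriers in 7 comparisons, grouped by substrate class, with stars where the adjusted p is under 0.05. Slc25a33 is the highest for activation (2.38 and 2.22), Slc25a45 and Slc25a53 the lowest, and the genotype columns hold few stars.

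Genotype comparisons called few carriers. In resting cells 4 of 24 passed, all lower in the knockout, where 19% of all genes passed and 12.3% were lower. Slc25a23 fell 1.68-fold (log2 difference -0.75 ± 0.19, adjusted p = 0.0174), with all 3 knockout arrays under the wild-type arrays. Slc25a14 fell at least 1.23-fold (log2 difference -0.52 ± 0.099, adjusted p = 0.00325), with every knockout array under the floor. Slc25a26 read 4.29, 4.99 and 4.38 in resting knockout cells, below the 5.01, 5.13 and 5.13 of resting wild-type cells (1.45-fold, log2 difference -0.54 ± 0.18, adjusted p = 0.0481), and it did not pass without resting wild-type array 1, resting wild-type array 2, resting wild-type array 3, resting knockout array 1 or resting knockout array 3 (adjusted p = 0.0698, 0.12, 0.127, 0.182 and 0.12, in that order). Slc25a44 also fell (1.39-fold, log2 difference -0.47 ± 0.13, adjusted p = 0.0252) but did not pass without resting wild-type array 2, resting wild-type array 3 or resting knockout array 2 (adjusted p = 0.0834, 0.115 and 0.071, in that order). Slc25a23 did not pass without resting wild-type array 3 or resting knockout array 1 (adjusted p = 0.0651 and 0.0698, in that order). With all arrays kept, the Slc25a26 call ended with no filter on dim genes, a common median and the mean of both probe sets. It ended as well with the compared groups fitted alone and with a trended prior. Slc25a25, near the floor, passed only with the array number as a block (adjusted p = 0.0749 without and 0.0313 with it), and Slc25a3 only without resting knockout array 1 (0.0487, against adjusted p = 0.165). After stimulation 2 of 24 passed, against 2.18% of all genes (0.597% lower). Slc25a23 fell 1.85-fold (log2 difference -0.88 ± 0.19, adjusted p = 0.0248) and Slc25a15 fell 1.41-fold (log2 difference -0.50 ± 0.094, adjusted p = 0.0115), with no overlap of arrays for either gene. Slc25a23 did not pass without stimulated wild-type array 1, stimulated wild-type array 2, stimulated wild-type array 3 or stimulated knockout array 1 (adjusted p = 0.0728, 0.121, 0.0691 and 0.115, in that order), and Slc25a15 did not pass without stimulated wild-type array 2 or stimulated knockout array 1 (adjusted p = 0.0763 and 0.0573, in that order). Slc25a23 was the member called in both genotype comparisons, and both cross the spike-in split. The counts were small enough for 1 array to move them: at rest 2 passed without resting wild-type array 2 and 1 without resting wild-type array 3, and after stimulation 1 passed without stimulated wild-type array 1 or 3 and 0 without stimulated wild-type array 2 or stimulated knockout array 1.

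The 2 inhibitors at 20 µM were compared with each other and, separately, with the same 3 stimulated wild-type arrays, which those comparisons share. With XCT790, 17 of 24 carriers passed against stimulated cells, 5 higher and 12 lower, where 66% of all genes passed (29.1% higher and 36.9% lower). The carriers' median was -0.48, beside -0.062 for all genes. With compound A 8 passed, 2 higher and 6 lower, against 33.2% of all genes (14.5% higher and 18.7% lower), and the medians were -0.038 and -0.030. The compounds differed directly for 13 carriers, 6 higher and 7 lower with XCT790, against 52.6% of all genes (24.8% higher and 27.8% lower). Lower with XCT790 were Slc25a4 (2.10-fold, log2 difference -1.07 ± 0.16, adjusted p = 5.99e-05), Slc25a11 (2.05-fold, adjusted p = 1.24e-05), Slc25a45 (1.88-fold, adjusted p = 0.000196), Slc25a17, Slc25a23, Slc25a46 and Slc25a5, the last 4 by 1.23-fold to 1.58-fold. Higher with XCT790 were Slc25a38 (1.81-fold, log2 difference 0.85 ± 0.19, adjusted p = 0.00166), Slc25a36 (1.72-fold, adjusted p = 1.51e-06), Slc25a26 (1.73-fold, adjusted p = 0.00185), Slc25a33 (1.65-fold, adjusted p = 0.00171), Slc25a28 (1.34-fold, adjusted p = 0.00971) and Slc25a3 (1.18-fold, adjusted p = 0.0156). The Slc25a28 difference did not pass without XCT790 array 1 (adjusted p = 0.0505). With the compared groups fitted alone, neither Slc25a33 nor Slc25a28 passed (limma, adjusted p = 0.0598 and 0.0519). For the other 11 carriers no difference passed. Intervals (95%, on the log2 scale) of XCT790 minus compound A included -0.41 to -0.0058 for Slc25a15, 0.014 to 0.74 for Slc25a30 and -0.58 to 0.42 for Slc25a37. Leaving out XCT790 array 2 gave calls for Slc25a14 (adjusted p = 0.0332), Slc25a15 (0.0493) and Slc25a20 (0.0387). Slc25a20 also passed without compound A array 1 (0.0193), Slc25a30 without compound A array 3 (0.032) and Slc25a44 without XCT790 array 3 (0.0418).

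**Figure D4:**
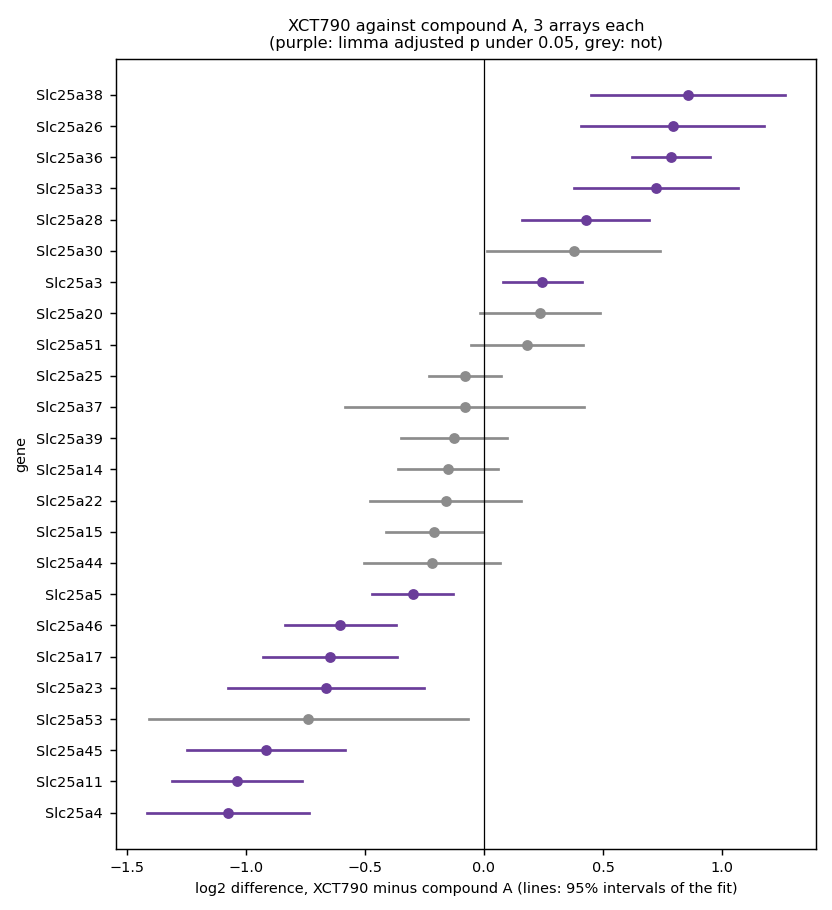
Log2 difference of XCT790 minus compound A for the 24 tested carriers, 3 arrays a group, in order of the difference; points are the fitted differences, lines their 95% intervals, and purple marks an adjusted p under 0.05. Slc25a4 is the lowest, at -1.07, Slc25a38 the highest, at 0.85, and 13 of the 24 are purple.

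Against resting wild-type cells, 16 carriers passed with XCT790, 7 higher and 9 lower, against 71.9% of all genes (33.6% higher and 38.3% lower). With compound A 16 passed, also 7 higher and 9 lower, against 69.7% (32.6% higher and 37.1% lower). Slc25a33 stayed above rest with either compound (5.34-fold and 3.24-fold, adjusted p = 5.57e-09 and 3.23e-07), and Slc25a53 stayed below it (at least 8.63-fold with XCT790, whose arrays were all under the floor, adjusted p = 9.57e-08). Slc25a4 and Slc25a11 fell below rest with XCT790 (2.13-fold and 2.27-fold, adjusted p = 2.12e-05 and 9.71e-07) but not detectably with compound A (adjusted p = 0.929 and 0.311). For Slc25a5 the XCT790 difference from rest was -0.035 (adjusted p = 0.709, 95% interval -0.21 to 0.14). Some smaller differences from rest depended on the arrays or settings used. Compound A calls for Slc25a26 and Slc25a3 ended when arrays were left out: Slc25a26 did not pass without resting wild-type array 2, resting wild-type array 3 or compound A array 2 (adjusted p = 0.0701, 0.0691 and 0.132, in that order), and Slc25a3 did not pass without resting wild-type array 2 (adjusted p = 0.0534). The Slc25a26 call also ended with no filter on dim genes, with a common median and with the mean of both probe sets. Slc25a20 passed without compound A array 1 (adjusted p = 0.00973), and Slc25a17 without XCT790 array 2 (adjusted p = 0.0453).

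Of the 33 carriers, 15 had more than 1 probe set, which in some cases disagreed. All 8 sets of Slc25a5 moved the same way, 0.58 to 1.18 higher with activation in wild-type cells and 0.69 to 1.42 lower with XCT790 on the log2 scale. The 3 detected sets of Slc25a4 differed by 0.21, 0.42 and 0.41 on activation in wild-type cells and by -1.30, -1.51 and -1.55 with XCT790. The 3 of Slc25a39 differed by 0.83, 1.25 and 1.68 on activation. The 3 detected sets of Slc25a30 differed by -1.29, -0.50 and -0.10 on activation, and by 1.47, 1.17 and 1.44 with XCT790. For Slc25a51 the reported set gave -0.63 on activation in wild-type cells and the others 0.83 and -1.35, so no direction of the gene can be given. The second set of Slc25a36 gave -0.0055 on activation in wild-type cells and 1.67 with XCT790, so the fall with activation was carried by the reported set and the rise with XCT790 by both. The second set of Slc25a44 gave -0.014 on activation, 0.62 for resting knockout against wild type and 0.36 with XCT790 and 0.33 with compound A, unlike the reported set in each, whose falls are therefore those of 1 probe set. The sets of Slc25a46 gave opposite signs on activation but -0.61 and -0.60 with XCT790.

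**Figure D5:**
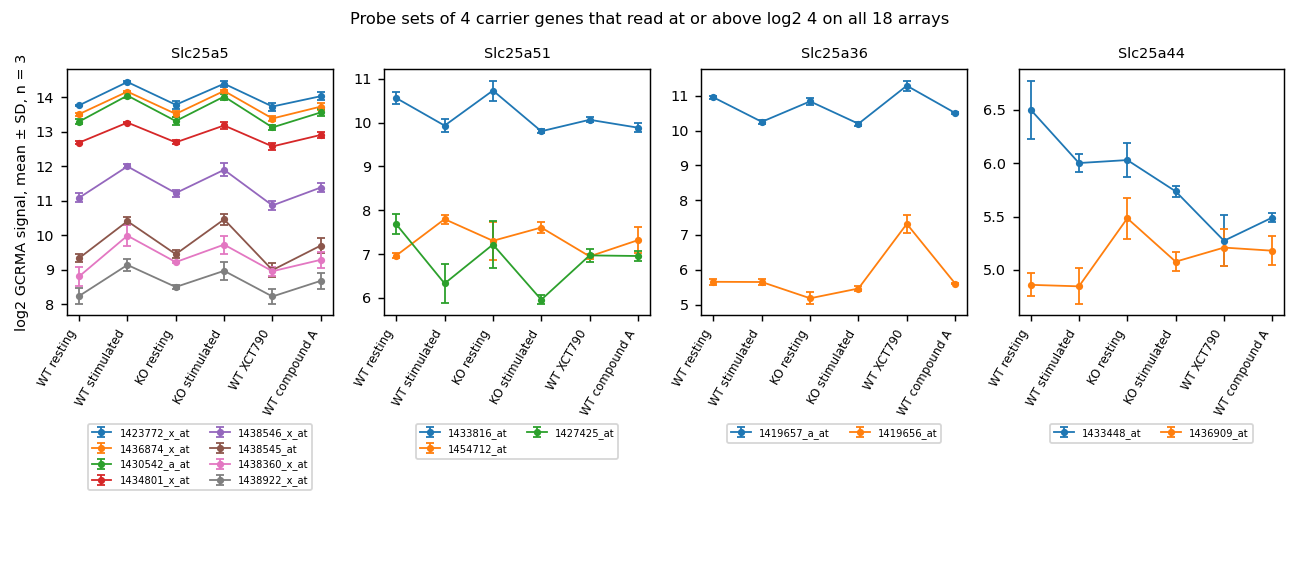
Group means ± SD of 3 arrays for every probe set of 4 carriers that read at or above log2 4 on all 18 arrays, on the log2 signal scale. The 8 Slc25a5 sets run in parallel, while the sets of Slc25a51, Slc25a36 and Slc25a44 take different courses over the groups.

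The 9 carriers that were not tested were Slc25a2, Slc25a10, Slc25a13, Slc25a24, Slc25a29, Slc25a35, Slc25a42, Slc25a47 and Slc25a48. Apart from Slc25a13, these reached no more than 3.98 on any array. Low readings of this kind do not show that a transcript is absent.

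Proteins that work beside the carriers were taken from 3 lists. The carrier import machinery, which brings newly made carriers from the outer membrane receptors through the small intermembrane chaperones to the TIM22 complex, had all 14 measured genes tested. Of these 11 rose and 0 fell on activation in wild-type cells (median 0.93 on the log2 scale), and 11 rose and 0 fell in knockout cells, where over all tested genes 37% rose and 38.4% fell in wild-type cells (median -0.011) and 37.7% and 35.7% in knockout cells. Tomm40, the channel of the outer membrane, rose 4.71-fold (adjusted p = 9.46e-10), Timm10, a chaperone, 3.81-fold (adjusted p = 1.32e-09), and Tomm70a, the receptor for carrier precursors, 2.55-fold (adjusted p = 5.05e-09). With XCT790 11 of the 14 fell and Tomm20 rose (median -0.75), against 36.9% lower and 29.1% higher among all genes (median -0.062), with Timm10b lower by 1.91-fold (adjusted p = 4.76e-08) and Timm22, the insertion pore, by 2.14-fold (adjusted p = 4.61e-07). With compound A 9 fell and 0 rose, against 18.7% and 14.5% of all genes, among them Timm8a1 (2.11-fold, adjusted p = 4.38e-05) and Timm9 (2.06-fold, adjusted p = 4.7e-05). The compounds differed directly for 6 of the 14, all lower with XCT790, as were 27.8% of all genes. Timm9 was the member that fell in the knockout, at rest (1.35-fold, adjusted p = 0.0286) and after stimulation (1.43-fold, adjusted p = 0.0463), where 12.3% and 0.597% of all genes fell. The list of other mitochondrial transport proteins had 9 of 10 measured genes tested, of which 6 rose and 1 fell on activation in wild-type cells, beside the same 37% and 38.4% of all genes: Letm1, an ion exchanger, rose 2.02-fold (adjusted p = 1.15e-07), Sfxn1, a serine transporter, rose 1.82-fold (adjusted p = 5.87e-06), and Tspo fell 3.58-fold (adjusted p = 1.36e-07). With XCT790 7 of the 9 fell and 0 rose, again beside 36.9% and 29.1% of all genes, with Sfxn1 lower by 2.18-fold (adjusted p = 7.3e-07) and Mpc1, a subunit of the pyruvate carrier, by 1.54-fold (adjusted p = 0.000251). Of the family members with other names, Mtch2 rose 1.53-fold (adjusted p = 3.45e-06) and Mtch1 fell 1.75-fold (adjusted p = 7.72e-05) on activation, Ucp1 and Ucp3 were measured but not tested, and Ucp2 was not analysed here.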

How the data were processed

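Total RNA of CD4+ T cells was labelled with biotin and measured on 18 Affymetrix Mouse Genome 430A 2.0 arrays, with groups taken from the labels and 3 independent biological replicates per group. Values are log2 signals, as deposited; the authors used GCRMA per the submitters' processing notes. Identical sorted values on all 18 arrays show quantile normalization. Of 22690 probe sets, 64 were controls, 1555 had no gene and 691 several, and none of these was used. A limma 3.58.1 fit in R 4.3.3 with a mean for each group, 12 residual and 2.22 prior degrees of freedom and no block gave the 10 comparisons; p-values are two-sided, adjusted by Benjamini and Hochberg over 6873 genes. A fold against a group with every array below log2 4 used that floor in place of the group and carries the words "at least". The fit was tested on simulated data in which 200 of the 6873 genes changed in stimulated wild-type cells. It recovered 62% of the changes at 1.5-fold, 84% at 2-fold, 90% at 4-fold and 100% at 8-fold, with 11 false calls. Far fewer genes changed there than on these arrays, so the rates may differ.

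Array numbers were taken as possible pairing where deviations from group means correlated above 0.1 for all 3 numbers: knockout activation, both genotype comparisons and each inhibitor against stimulated cells, with 0.148 the lowest correlation. Arrays of different numbers were not correlated, so this rule cannot show what same-numbered arrays share. The p-values are from the fit without a block unless a block is named. Every carrier is accounted for, and those that passed are named with their levels; each list names up to 4 genes of smallest p. Members and lists were chosen with earlier results of these data known. Alternatives were no floor or log2 6, medians made equal, averaging a gene's probe sets, the replicate block, a robust prior with a trend, fitting only the compared groups, and leaving out each array. The number of arrays limits the precision.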

Additional observations from a re-analysis of the deposited data

How the results depend on the processing

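Of 113 calls of a carrier in a comparison, 92 kept their call and direction under every alternative in which the gene was tested. The other 21 lost the call under at least 1, of which 17 lost it other than by leaving out an array. Slc25a14, Slc25a25 and Slc25a26 were not tested at a floor of log2 6, and their calls there count as neither kept nor lost. Fitting the compared groups alone ended 8 calls, the mean of all probe sets 8, no filter on dim genes 5, a common median 4 and a trended prior 3. Calls were also gained, 12 with the groups alone, 9 with the mean of all probe sets, 5 with the replicate block and 1 with a common median. With the groups alone Slc25a4, Slc25a20 and Slc25a37 were added for wild-type activation (18 calls became 21), Slc25a44 for knockout activation, Slc25a17, Slc25a22, Slc25a28 and Slc25a37 for compound A (8 became 12), Slc25a53 for XCT790 against stimulated cells and against compound A, and Slc25a26 for XCT790 against rest. The mean of all probe sets added Slc25a44 for knockout activation, Slc25a20 and Slc25a36 for the resting genotype difference, Slc25a26 and Slc25a39 for XCT790, Slc25a20, Slc25a30 and Slc25a39 between the compounds, and Slc25a30 for XCT790 against rest. In resting knockout against wild-type cells the count of 4 became 2 at a floor of log2 6, where Slc25a14 and Slc25a26 were not tested. It became 0 with the groups alone and ranged from 1 to 4 when single arrays were left out. In stimulated cells the count of 2 became 1 without a filter and 1 with the groups alone (Slc25a30, higher), and ranged from 0 to 2 without single arrays. The causes were not tested. The share of all genes called was not counted under these alternatives, so these counts of carriers have no such background. With the mean of all probe sets the resting genotype difference of Slc25a44 turned to 0.049 (adjusted p = 0.664), and its calls for activation, XCT790 and compound A ended (0.0544, 0.165 and 0.595).

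With the array number as a replicate block, 18 carriers passed for wild-type activation, 20 for knockout activation, 5 and 2 for the genotype at rest and after stimulation, 0 for the interaction, 17 for XCT790, 9 for compound A, 14 between the compounds, and 16 and 17 for XCT790 and compound A against rest. Where numbers did not count as possible pairing, the block added Slc25a15 between the compounds (adjusted p = 0.0328) and Slc25a20 for compound A against rest (0.0401). Beside the calls given with their comparisons it changed no other. The share of all genes called with the block was not counted either. Signals near log2 4 limit Slc25a14, Slc25a25 and Slc25a53.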
